A study of Mus musculus with 83 samples.

Results

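The retinoic acid (RA) response of TBP-depleted mouse embryonic stem cells was measured as Pol II occupancy by CUT&Tag. The members are 4 of the 83 libraries of the series, chosen by their labels: 2 libraries of C64 cells given RA together with indole-3-acetic acid (IAA) and 2 libraries of C64 cells given IAA alone for 16 h. In C64 cells both copies of the Tbp gene carry an auxin-inducible degron, so that IAA (500 µM) leads to degradation of the TBP protein, and the 4 libraries share this treatment. RA was given for 16 h at 25 µM in the labels, whereas the methods of the study give a lower concentration. The same run held 2 libraries with RA alone and 2 control libraries of the same cells, in which TBP was not depleted. The study gives DMSO as the treatment of its control cells. The RA and control libraries are used to set the response without IAA beside that with IAA. In fits of all 8 Pol II libraries of the run they also add to the estimate of the spread. C64 is 1 cloned line, and all cells were grown on gelatin in medium with LIF, the cytokine that maintains embryonic stem cells, so the response is that of 1 clone 16 h after RA in the presence of LIF.

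Retinoic acid enters the nucleus and binds the receptors RARα, RARβ and RARγ, which sit on DNA as heterodimers with RXR at repeats of a short half-site. Bound ligand exchanges corepressors for coactivators, and the first genes to gain Pol II include the receptor gene Rarb itself and genes that bind, reduce or break down retinoids, which limits the signal. In embryonic stem cells the hormone also leads to loss of the pluripotency network. TBP is the subunit of TFIID that binds the TATA box, and the comparison asks what RA does to Pol II on genes when TBP is depleted.

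The 4 libraries held 3854622 to 5056322 reads in genes after the study's reduction of each library to an equal number of reads. TBP CUT&Tag made in the same run gave a coarse check of the depletion, as mouse reads per E. coli carry-over read. In the RA + IAA libraries this ratio was 0.393 and 0.567 of the RA level (replicates 1 and 2). In the IAA libraries it was 0.621 and 0.374 of the control level. The ratio counts mouse reads wherever they lie and not TBP at promoters, where the study reported a greater loss after IAA. Between the TBP-depleted groups, the RA + IAA libraries had 0.701 and 0.921 of the IAA level. The E. coli share of the Pol II libraries was 0.494 to 0.566% in replicate 1 and 7.55 to 11.6% in replicate 2 over the 4 groups, so the replicates stood apart in the same way in each group, and replicate number was a term in every fit unless stated. Markers of the embryonic stem cell list added up to 319 and 410 CPM (counts scaled to a common library size) in the RA + IAA libraries and 612 and 1011 CPM in the IAA libraries, most of it from Esrrb. Primitive endoderm markers summed to 3828 and 1728 CPM with RA + IAA and 3716 and 1795 CPM with IAA. Most of this came from laminin and collagen IV genes, and the sum followed replicate. Of 18 tested members, 8 had log2 changes above 0 and 10 below, and 0 passed. Sox17 and Foxa2, named after their values were seen, were lower with RA + IAA without overlap. Sox17 had 25.9 and 27.1 against 33.6 and 40.5 CPM, and Foxa2 10.6 and 9.29 against 16.5 and 25.1 CPM. Sox2, a defining marker, held 0 reads in all 8 libraries. Its span lies wholly within that of Sox2ot, and all 2954 genes nested in another gene held 0 reads, against 4.56% of the other genes. Fibroblast markers summed to 159 and 226 CPM with RA + IAA and 118 and 133 CPM with IAA, and 1 of their 8 tested members, Pdgfrb, passed the test. Their part in the results was not tested, and in bulk libraries fewer cells of a type cannot be told apart from less Pol II per cell.

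With TBP depleted, RA raised Pol II counts on 7 of 24 tested known RA targets, among them Stra8, Nrip1 and Rarb, and lowered them on 3 of 14 core pluripotency factors, with Esrrb changed most. No member of either list was called in the other direction. Of 16395 genes tested, 123 were higher (0.75%) and 175 lower (1.07%) in RA + IAA than in IAA at a Benjamini-Hochberg adjusted p below 0.05 (edgeR quasi-likelihood test with replicate as a block). Among them, 58 rose and 68 fell by a factor of 2 or more, and the smallest called change was 0.59 on the log2 scale. The median over all genes tested was 0.02. The count depends on how the spread is estimated. Without the block the same test called 0 genes, with 629 at an unadjusted p below 0.05, and 280 of the 298 called genes were among those. The likelihood-ratio test without a block, which is the study's own design, called 40 higher and 32 lower, and 71 of them were among the 298. With all 8 libraries of the run in 1 blocked fit, 275 were higher and 366 lower, and they included all 298. Scaling by E. coli reads in place of TMM gave 72 higher and 252 lower, and 228 of them were among the 298.

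**Figure D1:**
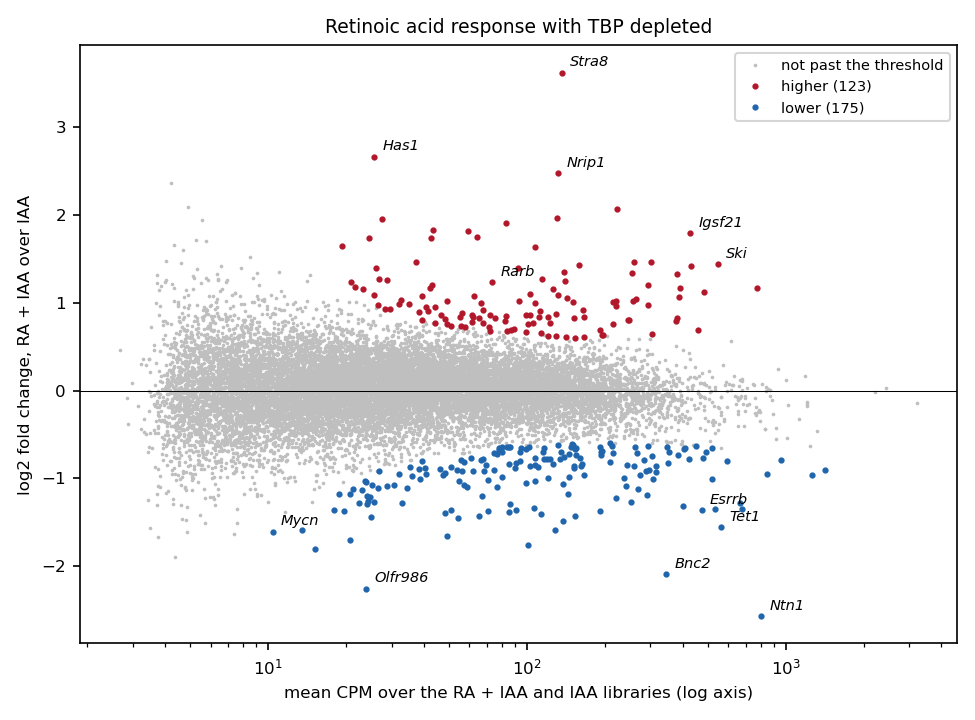
Log2 fold change of RA + IAA over IAA against the mean CPM of the 4 libraries, for each of 16395 genes tested. Red points are the 123 genes higher and blue points the 175 genes lower with RA + IAA, with Stra8 highest at 3.62 and Ntn1 lowest at -2.57.

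Stra8, a gene stimulated by retinoic acid that is needed for entry into meiosis, gained most (chr6:34920163-34939344, plus strand, mm10). It held 327 and 179 CPM in the RA + IAA libraries and 19.8 and 20.0 CPM in the IAA libraries, a 12.3-fold difference (log2 3.62 ± 0.20 SE, edgeR adjusted p = 1.66e-10). Has1, a hyaluronan synthase, had 49.6 and 39.1 CPM with RA + IAA and 5.84 and 8.19 CPM with IAA (log2 2.66 ± 0.28). Kit, the receptor tyrosine kinase of germ and blood cells, had 239 and 176 CPM with RA + IAA and 41.7 and 66.2 CPM with IAA (log2 1.96 ± 0.19). Each of these genes was higher in both libraries with RA, which was a condition for naming it here. Scube3, which encodes a secreted and membrane-attached glycoprotein, had 132 and 130 CPM with RA + IAA and 33.4 and 36.9 CPM with IAA (log2 1.90 ± 0.17). Igsf21, an immunoglobulin superfamily gene, had 641 and 680 CPM with RA + IAA against 162 and 224 CPM with IAA (log2 1.79 ± 0.17). Steap3, a ferrireductase of the endosome, had 176 and 149 CPM with RA + IAA against 58.4 and 46.7 CPM with IAA (log2 1.63 ± 0.16). Groups without overlap were a condition for naming all of these genes, so the lack of overlap is no result. Stra8 and Kit were higher in replicate 1 than in replicate 2 of RA + IAA. Pdgfrb, the PDGF receptor β gene, and Nr5a1os, an antisense transcript of which Nr5a1 covers 23.4% of the span, were also among the 15 higher genes with the greatest change, with log2 changes of 1.75 ± 0.18 and 1.74 ± 0.26.

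Among the receptors and their cofactors, 2 of 15 tested genes were higher and 0 lower, with a list median of 0.11. Rarb, the receptor gene that is itself a classical RA target, had 100 and 106 CPM in RA + IAA libraries and 37.3 and 51.3 CPM in IAA libraries (log2 1.23 ± 0.17, edgeR adjusted p = 0.000156). Nrip1, which encodes the ligand-dependent corepressor RIP140, had 262 and 187 CPM with RA + IAA and 42.1 and 37.8 CPM with IAA (log2 2.48 ± 0.16). The groups did not overlap for either gene, which for Nrip1 was also a condition for its place among the 15 higher genes with the greatest change. The genes of the other receptors did not pass the test: Rara stood at 358 and 306 CPM with RA + IAA and 276 and 288 CPM with IAA (log2 0.23 ± 0.16, adjusted p = 0.668), and Rarg at 86.1 and 80.2 CPM with RA + IAA and 91.8 and 93.0 CPM with IAA (log2 -0.15 ± 0.16, adjusted p = 0.848). Nr2f2, an orphan receptor gene, had 23.1 and 27.1 CPM against 32.3 and 46.7 CPM, which did not pass the test (log2 -0.64 ± 0.22, adjusted p = 0.195).

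Genes of retinoid transport and metabolism gave 3 higher and 0 lower of 17 tested, with a median of 0.14. Cyp26c1, a cytochrome P450 that degrades RA, had 92.6 and 43.3 CPM with RA + IAA and 22.3 and 14.7 CPM with IAA (log2 1.83 ± 0.21, edgeR adjusted p = 1.46e-05). Dhrs3, which reduces retinaldehyde to retinol, had 43.9 and 31.8 CPM with RA + IAA and 13.6 and 14.9 CPM with IAA (log2 1.4 ± 0.25). Stra6, the membrane receptor for retinol-binding protein, had 33.3 and 30.3 CPM with RA + IAA and 14.8 and 19.0 CPM with IAA, without overlap, and was just short of the threshold (log2 0.92 ± 0.25, adjusted p = 0.068). Ccdc33 covers 61.0% of the Stra6 span, so its counts come from the remainder. Cyp26a1 and Cyp26b1, which encode the other RA hydroxylases, did not pass the test. Cyp26a1 had 9.39 and 4.16 CPM with RA + IAA and 9.18 and 9.15 CPM with IAA (log2 -0.49 ± 0.46), and Cyp26b1 had 48.8 and 41.8 CPM against 36.1 and 53.2 CPM (log2 0.04 ± 0.21). At the depth of Cyp26a1 a change of that size could not be detected.

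The promoters of Rarb and Cyp26a1 show a sequence that RAR/RXR heterodimers are known to bind, and that of Stra8, the gene with the greatest gain, is shown beside them. Promoters of 300 bases (250 before to 50 after the start site, RefSeq, GRCm38.p6) were searched on both strands for a direct repeat of the half-site AGGTCA or any of its variants (the variant AGTTCA, the variant GGGTCA and the variant GGTTCA) with 1, 2 or 5 bases between (called DR1, DR2 and DR5). The repeats can overlap one another, and the TATA box was searched as TATAAA. Capitals mark a repeat on either strand, or a TATAAA on the gene's strand. Rarb lies at chr14:16575427-16575726 (minus strand), Cyp26a1 at chr19:37697558-37697857 (plus strand) and Stra8 at chr6:34920698-34920997 (plus strand).
Rarb: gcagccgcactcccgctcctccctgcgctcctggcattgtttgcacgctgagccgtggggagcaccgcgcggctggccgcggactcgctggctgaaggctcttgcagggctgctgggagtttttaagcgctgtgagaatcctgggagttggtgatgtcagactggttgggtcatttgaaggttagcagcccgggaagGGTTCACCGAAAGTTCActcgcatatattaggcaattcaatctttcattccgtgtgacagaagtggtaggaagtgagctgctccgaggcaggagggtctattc
Cyp26a1: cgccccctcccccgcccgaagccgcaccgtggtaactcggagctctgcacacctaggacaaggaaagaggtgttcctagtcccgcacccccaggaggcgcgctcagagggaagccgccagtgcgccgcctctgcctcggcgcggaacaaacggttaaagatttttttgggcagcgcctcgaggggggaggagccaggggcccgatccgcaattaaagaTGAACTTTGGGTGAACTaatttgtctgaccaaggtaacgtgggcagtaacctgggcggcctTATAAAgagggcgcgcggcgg
Stra8: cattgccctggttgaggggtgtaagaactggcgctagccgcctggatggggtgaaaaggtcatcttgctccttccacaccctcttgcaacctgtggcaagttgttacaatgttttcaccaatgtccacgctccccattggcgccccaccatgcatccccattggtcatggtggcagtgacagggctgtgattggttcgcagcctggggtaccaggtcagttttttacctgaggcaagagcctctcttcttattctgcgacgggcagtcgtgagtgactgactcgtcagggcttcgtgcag
In Rarb the DR5 is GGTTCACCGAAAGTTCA and begins 53 bases before the start site. In Cyp26a1 the DR5 reads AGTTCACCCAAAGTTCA on the opposite strand, and a TATAAA lies in the 50 bases after the annotated start. The Stra8 window held none of the repeats and no TATAAA. A DR5 was found in 0.0974% of 32851 promoters, a DR2 in 0.268% and a DR1 in 0.222%, and among the 16166 promoters of tested genes in 0.0495%, 0.0866% and 0.217%. Among the genes called with IAA, 230 matched a promoter by symbol, and 1 higher gene (Rarb) held a DR5 and 1 lower gene (Slc7a7, named after its values were seen) held a DR2. The promoters of Has1, Nrip1, Kit, Scube3, Cyp26c1 and Dhrs3 held none in this window. A TATAAA on the gene's strand was in 4.62% of 130 promoters of the higher genes, 4.78% of 209 of the lower genes and 4.76% of 16166 of the tested genes. These matches describe letters in the window and not sites of binding.

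The TATA box was also taken from the lists that the study deposited. Of 3592 tested genes on the TATA list, 28 were higher (0.78%) and 41 lower (1.14%) with RA + IAA, and the median log2 change was 0.01. Of 11782 tested genes on the TATA-less list, 90 were higher (0.764%) and 123 lower (1.04%), with a median of 0.02. Both shares lie near the 0.75% and 1.07% of all genes tested.

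Among homeobox genes of the Cdx, Meis and Pbx list, 2 of 9 tested genes rose and 0 fell. Cdx1, a caudal gene that patterns the embryonic axis, had 39.8 and 46.9 CPM with RA + IAA and 7.30 and 16.1 CPM with IAA (log2 1.96 ± 0.26, edgeR adjusted p = 7.23e-05). Cdx2, a trophectoderm regulator, had 10.6 and 14.2 CPM with RA + IAA and 25.0 and 21.4 CPM with IAA (log2 -0.92 ± 0.30, adjusted p = 0.155). Meis2 and Pbx3 stood at log2 0.32 ± 0.18 and 0.48 ± 0.16 and did not pass. Of the Hox clusters, 0 of 22 tested genes passed in either direction, and 21 of the 22 had values below 0, with a median of -0.49 against 0.02 for all genes. Without IAA 12 of the 22 were lower and 0 higher (median -0.84). In the fit of all 8 libraries, 3 of the 22 were lower with IAA. The other 17 of 39 Hox genes were not tested. Among them Hoxa3, Hoxb2, Hoxc8 and more held 0 reads in all 8 libraries, as nested genes did. The counts therefore say nothing on RA at those genes.

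Ntn1, which encodes the guidance cue netrin-1, lost most Pol II (chr11:68209364-68400823, minus strand, mm10). It held 202 and 257 CPM in the RA + IAA libraries and 1101 and 1659 CPM in the IAA libraries, 5.93-fold lower with RA + IAA (log2 -2.57 ± 0.18, edgeR adjusted p = 2.16e-08). Bnc2, a zinc finger gene, had 122 and 139 CPM with RA + IAA and 644 and 478 CPM with IAA (log2 -2.09 ± 0.17). Groups without overlap were a condition for naming both genes. Slc39a14, a zinc and manganese transporter, had 84.7 and 61.9 CPM with RA + IAA and 210 and 198 CPM with IAA (log2 -1.49 ± 0.16). Nphs1, the nephrin gene, had 25.3 and 21.0 CPM with RA + IAA and 96.8 and 53 CPM with IAA (log2 -1.65 ± 0.21). Genes with fewer reads were also among the 15 lower genes with the greatest change. Olfr986 had 12.7 and 4.40 CPM with RA + IAA and 40 and 38.3 CPM with IAA, Mup6 had 3.47 and 11 against 21.3 and 25.1 CPM, and Platr10, a noncoding RNA of pluripotent cells, had 11.8 and 7.58 against 38.6 and 24.6 CPM. E130202H07Rik had 6.73 and 6.36 CPM with RA + IAA and 28.4 and 12.8 CPM with IAA. The olfactory receptor gene Olfr986 ends 2181 bases before Zfp202 on the same strand, and Zfp202 fell too (log2 -1.59 ± 0.17). Among the axon guidance genes, 4 of 26 were lower and 0 higher: Ntn1, the ephrin receptor Epha4 (log2 -1.18 ± 0.15), the semaphorin Sema6a (-1.02 ± 0.18) and the semaphorin receptor Nrp2 (-0.99 ± 0.16), and the list median was 0.05.

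**Figure D2:**
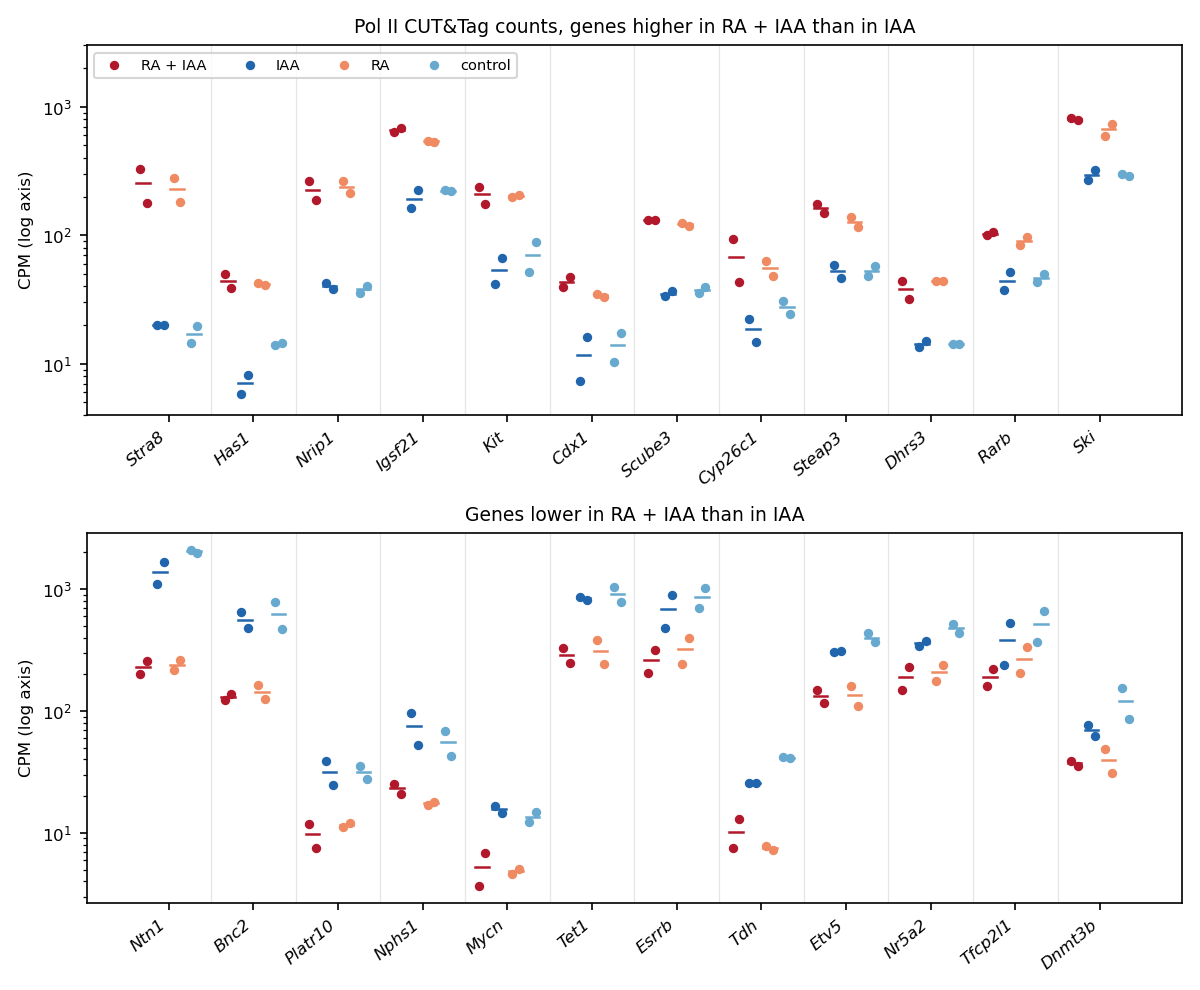
Pol II CUT&Tag counts in CPM (log axis) for 12 genes higher (top) and 12 genes lower (bottom) in RA + IAA than in IAA, with 1 point per library and a bar at the mean of each group of 2. The RA + IAA and RA points of a gene lie at like levels, as for Stra8 at 327 and 179 CPM with RA + IAA and 280 and 182 CPM with RA.

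Of the core pluripotency factors, 3 of 14 tested genes fell and 0 rose, with a median of -0.37. Esrrb, an orphan receptor of the naive state, had 205 and 319 CPM in RA + IAA libraries and 483 and 889 CPM in IAA libraries (log2 -1.36 ± 0.17, edgeR adjusted p = 2.92e-05). Nr5a2, a nuclear receptor that can stand in for Oct4 in reprogramming, had 148 and 230 CPM with RA + IAA and 343 and 375 CPM with IAA (log2 -0.96 ± 0.16). Tfcp2l1, a naive-state transcription factor, had 160 and 223 CPM with RA + IAA and 240 and 528 CPM with IAA (log2 -0.92 ± 0.17). The groups did not overlap for these genes and came closest for Tfcp2l1, at 223 CPM in RA + IAA replicate 2 and 240 CPM in IAA replicate 1. Pou5f1, which encodes Oct4, had 5.92 and 10.5 CPM with RA + IAA and 6.47 and 5.78 CPM with IAA (log2 0.37 ± 0.48), and Nanog had 5.51 and 8.31 against 6.88 and 7.71 CPM (log2 -0.10 ± 0.47). With so few reads in Pou5f1 and Nanog, a change of the size seen for Tfcp2l1 was not detectable at this depth. Klf5 and Zfp42 stood at -0.32 ± 0.16 and -0.42 ± 0.22 and did not pass.

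Of the other stem cell markers, 4 of 17 fell and 0 rose, with a median of -0.53. Tet1, the dioxygenase that oxidises methylcytosine, had 328 and 248 CPM with RA + IAA and 858 and 821 CPM with IAA (log2 -1.55 ± 0.17, edgeR adjusted p = 7.94e-06). Tdh, threonine dehydrogenase, had 7.55 and 13.0 CPM with RA + IAA and 25.7 and 25.5 CPM with IAA (log2 -1.36 ± 0.31). Mycn had 3.67 and 6.84 CPM against 16.7 and 14.4 CPM (log2 -1.60 ± 0.41, adjusted p = 0.046), and Jam2, a junction adhesion gene, was just past the threshold (log2 -0.70 ± 0.18, adjusted p = 0.0496). Myc had 22.4 and 8.31 CPM with RA + IAA and 29.8 and 24.8 CPM with IAA and did not pass (log2 -0.92 ± 0.29, edgeR adjusted p = 0.138). Without IAA, in the separate fit of that response, Myc was lower (log2 -1.32 ± 0.24, edgeR adjusted p = 1.74e-06). The difference between these values was 0.50, with a 95% interval from -0.30 to 1.31. Among signalling genes, the LIF receptor gene Lifr fell (log2 -0.67 ± 0.16), as did Etv5, an ETS factor downstream of FGF (log2 -1.22 ± 0.16), while Fgfr1 rose (log2 0.60 ± 0.15). In the Nodal, BMP and TGF-beta list 2 of 22 rose and 0 fell: Ski, a corepressor of SMADs, had 813 and 783 CPM with RA + IAA and 268 and 322 CPM with IAA (log2 1.44 ± 0.17), and the inhibitory SMAD gene Smad6 had 120 and 166 against 57.0 and 87.0 CPM (log2 1.0 ± 0.16). Of the extracellular matrix genes, 2 of 22 fell, Fn1 (log2 -0.90 ± 0.18) and Col18a1 (-0.65 ± 0.15).

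Lists of lineages that RA can induce over longer times held few calls. In the epiblast and neuroectoderm list 1 of 13 fell, the DNA methyltransferase gene Dnmt3b (log2 -0.91 ± 0.19), and 0 rose (median -0.38). The mesoderm list gave 0 of 14, the primitive endoderm list 0 of 18, the trophectoderm list 0 of 13, the Wnt list 0 of 26 and the p53 list 0 of 18 in either direction. Ribosomal protein genes gave 0 of 34, with 31 values below 0 and a median of -0.34, and in the fit of all 8 libraries 5 were lower with IAA. Without IAA 13 of 34 were lower (median -0.45). No gene of the 2-cell-like list reached the count minimum, and the list summed to 4.90 and 9.54 CPM with RA + IAA and 5.01 and 6.5 CPM with IAA. Tbp itself had 36.9 and 33.7 CPM with RA + IAA and 38.0 and 22.4 CPM with IAA (log2 0.26 ± 0.23), which checks nothing, since IAA acts on the protein.

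**Figure D3:**
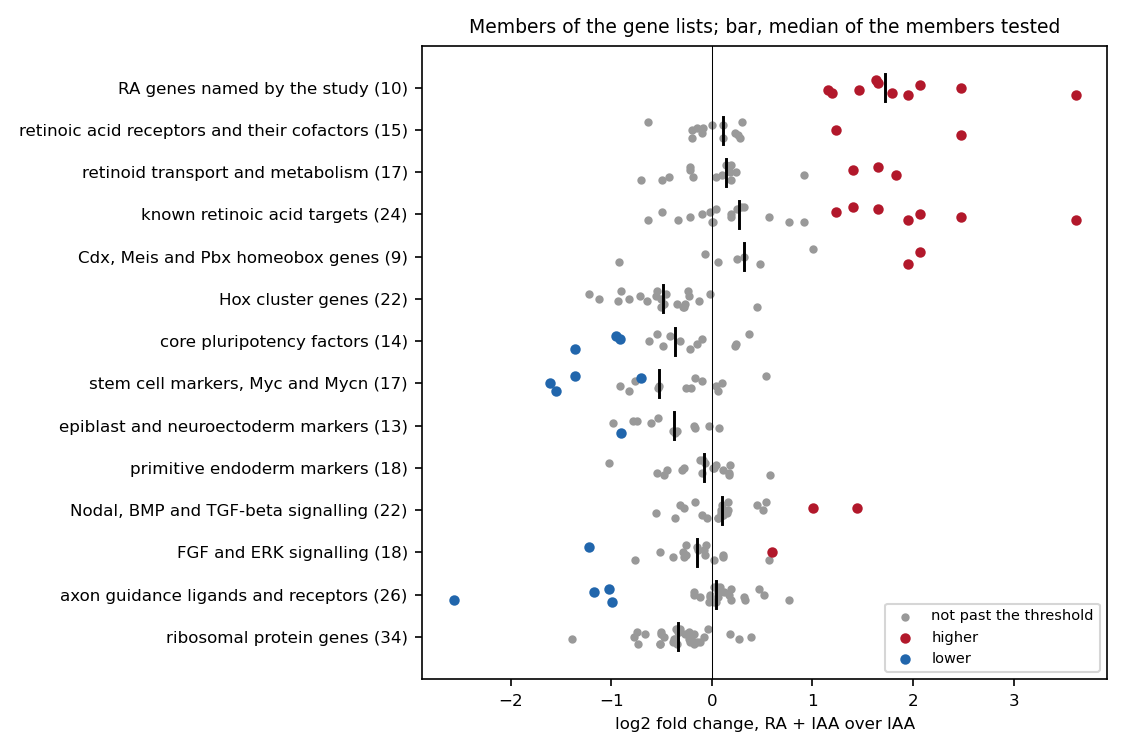
Log2 fold change of RA + IAA over IAA for each tested member of 14 gene lists, with red points higher, blue points lower, grey points not past the threshold and a bar at the median. The Hox and ribosomal protein lists lie mostly below 0 with 0 members called, and the receptor and retinoid lists hold only higher calls.

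The lists were set beside the response without IAA. The study named a list of 10 RA genes from its RA and control libraries, so that 10 of 10 higher without IAA is no independent evidence of their direction. In the RA + IAA and IAA libraries, which that choice did not use, 10 of 10 were higher too. It adds Islr, Zfyve28 and Tspan9 to the genes above, with log2 changes with IAA of 1.46 ± 0.22, 1.15 ± 0.16 and 1.2 ± 0.16. Known RA targets gave 7 of 24 higher with IAA and 8 of 23 higher and 3 lower without IAA.

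Without IAA, RA raised 777 of 16350 genes tested (4.75%) and lowered 1086 (6.64%) relative to control under the same blocked test. In this fit the spread of each gene was taken wholly from the trend over all genes. With IAA each gene kept a part of its own spread. The study, whose test had no block, reported 44 higher and 88 lower genes from these libraries. In the fit of all 8 libraries, which gives both responses 1 spread, the counts without IAA were 397 higher and 666 lower. Every one of the 298 genes called with IAA had the same direction without IAA, and 271 were called there too: 114 of the 123 higher genes (92.7%) and 157 of the 175 lower genes (89.7%). These make up 14.7% of the genes higher and 14.6% of the genes lower without IAA that were tested in both. Those shares rest on separate fits, each with its own spread, so the thresholds are not alike. With 1 spread, in the fit of all 8 libraries, 275 genes were higher and 366 lower with IAA. No library is in both comparisons. The log2 changes of the 298 genes in the 2 comparisons had a Pearson r of 0.962 across genes, and 0.533 over all 16032 genes tested in both, as a description, since genes share libraries and are not replicates. Genes higher with IAA had a median of 0.98 there and 0.81 without IAA, and genes lower with IAA had -0.91 and -0.86. Seen from the other side, genes higher without IAA had a median of 0.38 with IAA and 0.58 without, and genes lower without IAA had -0.40 and -0.61. In each case the comparison that chose the genes shows the greater median. Of the genes called without IAA, 736 of 775 higher and 1025 of 1078 lower had the same sign with IAA.

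**Figure D4:**
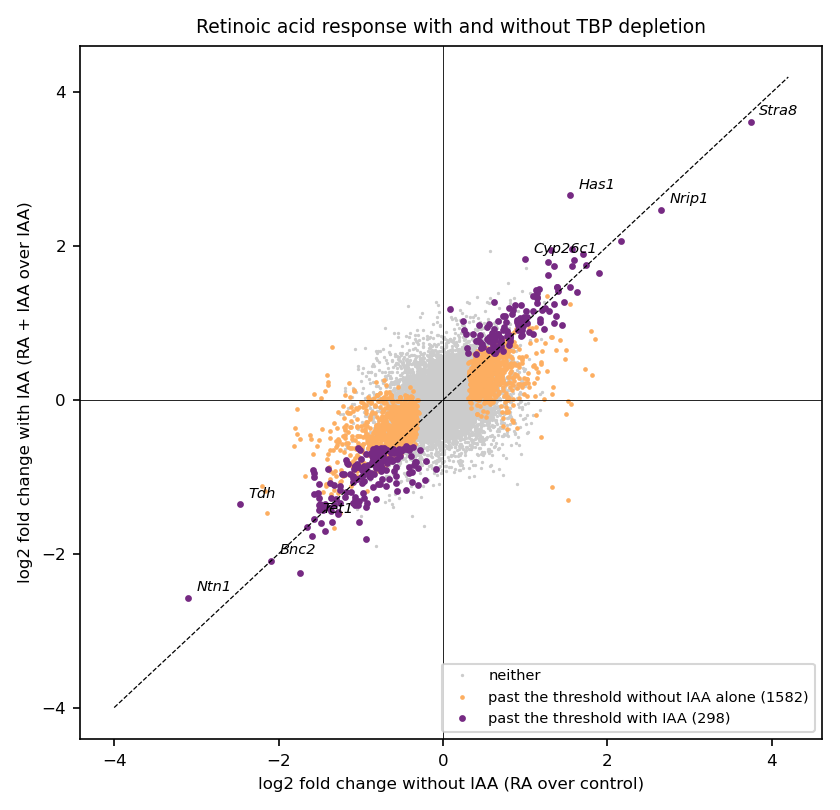
Log2 fold change with IAA (RA + IAA over IAA, vertical axis) against that without IAA (RA over control, horizontal axis) for 16032 genes, with the line of equality dashed. Purple points are the 298 genes called with IAA, all to the upper right or lower left of the origin, and orange points the 1582 called without IAA alone. The calls come from a separate fit of each response, each with its own spread.

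Whether a gene responded differently was tested as (RA + IAA minus IAA) minus (RA minus control) in the fit of all 8 libraries. Of 17032 genes, 0 passed in either direction (0%), with 580 at an unadjusted p below 0.05 in edgeR, and DESeq2 gave 0 with 205. Both counts are under the share of 0.05 that a well-scaled test would give with no difference at all. The lack of calls therefore does not show that the responses are alike. For 256 of the 298 genes (85.9%) the 95% interval of the difference lay within a factor of 2 in either direction, against 64.6% of all genes tested in both. For Stra8 the difference was -0.10, with an interval from -0.70 to 0.49. For Nrip1 it was -0.17 (-0.60 to 0.27), for Rarb 0.28 (-0.16 to 0.72), for Esrrb 0.08 (-0.28 to 0.44) and for Tet1 0.00 (-0.38 to 0.38). For 27 of the 298 genes the unadjusted interval left out 0, among them Has1 (1.12, from 0.42 to 1.82), Cyp26c1 (0.84, from 0.26 to 1.42), Tdh (1.12, from 0.35 to 1.89) and Ntn1 (0.53, from 0.13 to 0.93), and none passed after adjustment. Has1 had 49.6 and 39.1 CPM with RA + IAA, 5.84 and 8.19 with IAA, 42.2 and 41.0 with RA and 14.0 and 14.4 in control. The levels with RA were close with and without IAA, and the level without RA was lower with IAA. Ntn1 had the same order, with 217 and 261 CPM with RA and 2086 and 1990 CPM in control.

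**Figure D5:**
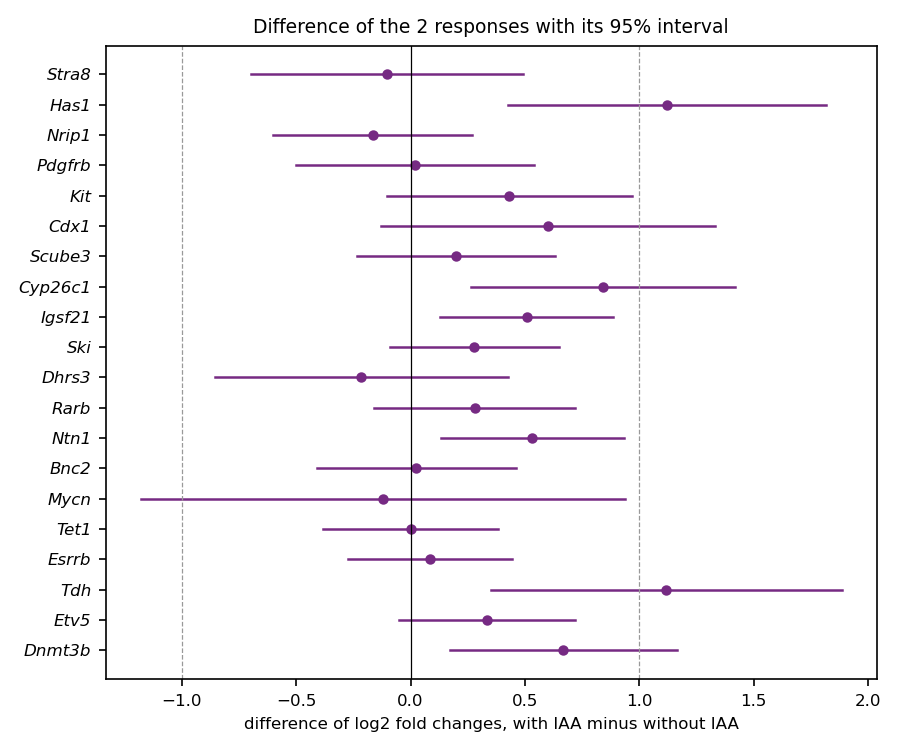
Difference of the log2 fold changes, with IAA minus without IAA, for 20 genes called with IAA, with its 95% interval as a line and a factor of 2 as dashed lines. Most intervals cross 0, and those of Has1, Cyp26c1, Igsf21, Ntn1, Tdh and Dnmt3b lie above it without adjustment.

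The 5 genes with the smallest p of the difference in each direction were mostly genes without a called response with IAA. Ak4, an adenylate kinase gene, had 59.0 and 44.5 CPM with RA + IAA and 37.1 and 49.4 CPM with IAA, against 53.1 and 60.1 CPM with RA and 86.8 and 100 CPM in control (difference 1.0, from 0.50 to 1.5, unadjusted p = 0.000338 in edgeR, adjusted p = 1). It was followed by Cers4 (0.88), Nid1 (0.98), Crlf2 (0.86) and Eppk1 (0.88). Below 0 were 4930471M09Rik (-2.83), Synpr (-1.09), Tma7 (-2.44), Vezf1 (-1.05) and Scml2 (-0.97).

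The called genes were longer than the rest, which the rule did not use. The median span was 64058 bases for the higher genes, 57224 for the lower genes and 26685 for all genes tested, and the median level in the IAA libraries was 61.3 CPM for the higher genes, 141 CPM for the lower genes and 30.0 CPM for all genes tested. The part of read depth in the length of the called genes was not tested. By length, 64 of 4278 genes of 60 kb or more were higher and 83 lower, against 1 higher and 0 lower of 341 genes under 2 kb. Of 296 called genes with a single span, 65 (22%) overlapped another called gene or lay within 20000 bases of one, against 255 of 16072 tested genes that were not called (1.59%). The called genes formed 34 such pairs, all in the same direction. Among all 12691 pairs of tested genes within the same distance, 58.1% had the same sign. The part of gene length in the number of neighbours was not tested. Examples chosen after their values were seen are Stra8 and Slc23a4 (gap of 5933 bases, log2 1.82 ± 0.19 for Slc23a4, a transporter gene), Has1 and Spaca6 (313 bases, 1.74 ± 0.26 for Spaca6), and Cdx1 and Pdgfrb (8950 bases). Slc23a4 and Spaca6 run towards their neighbour on the other strand. CUT&Tag reads are of DNA and hold no transcript strand, so reads of the gene and of a neighbour's flank cannot be told apart. Gcnt2 and A730081D07Rik overlap by 4479 bases and fell together (log2 -1.43 ± 0.16 and -1.45 ± 0.20).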

How the data were processed

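Pol II CUT&Tag was made in C64 mouse ES cells. The authors reduced each library to an equal number of reads, kept PCR duplicates, aligned them with Bowtie2 to mm10 and counted reads over whole genes with featureCounts without strand. The deposited values are raw counts per gene, and the read numbers used for the E. coli ratios are the authors' own. Here CPM use library sizes scaled by TMM over the 8 Pol II libraries of the run. Genes were filtered with filterByExpr (minimum count 20) and tested with edgeR 4.0.16 in R 4.3.3 (quasi-likelihood F test, Benjamini-Hochberg threshold 0.05), with replicate number as a block. Same-numbered libraries deviated together in all 6 pairs of groups (r from 0.424 to 0.629 over 17032 genes). SE is that of the log2 fold change. DESeq2 1.42.0, other scalings and filters, and leaving out each library were alternatives. The study calls its replicates independent, but they come from 1 line, so p-values measure the spread between these libraries. Counting error and the 2 libraries per group limit precision.

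The members and gene lists were chosen with earlier results of these data known. Named genes were the 15 in each direction with the greatest change among those past the threshold, with no overlap of groups and a mean of at least 10 CPM in the higher group, up to 5 called members per list, tested members of the RA and pluripotency lists, Myc and Tbp, and the 5 in each direction with the smallest p of the difference. Fold-change tables of the authors were not used. Genes were matched to the deposited TATA list by symbol and to the TATA-less list through RefSeq accessions (27251 of 27471 matched), and 14 genes in both lists were left out. Some items are not reported here.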

Additional observations from a re-analysis of the deposited data

How the results depend on the processing

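Counts of genes past the threshold depended on the model of the spread. With IAA the blocked test gave 123 higher and 175 lower genes. Without the replicate block the test gave 0 and 0 (without IAA 2 and 1), and the likelihood-ratio test without a block gave 40 and 32 (without IAA 44 and 88). DESeq2 gave 58 and 90 (without IAA 126 and 303), E. coli scaling 72 and 252 (without IAA 5 and 143), and all 8 libraries 275 and 366 (without IAA 397 and 666). E. coli scaling moved the median of all genes to -0.08 with IAA and -0.29 without. Fits of all libraries of the run but 1, where a lone sample is assumed to vary like the other groups, gave 135 to 194 higher and 233 to 401 lower with IAA, and 85 to 174 higher and 181 to 277 lower without. The difference of the responses gave 0 genes in each setting it was run in, which did not include the unblocked likelihood-ratio test. Of 49 called genes followed through each setting, none changed sign, and 38 kept their call with DESeq2, 43 with E. coli scaling, 33 with the unblocked likelihood-ratio test and 0 with the unblocked quasi-likelihood test. Among genes not called, Cyp26b1 turned to -0.052 with E. coli scaling. Fits that left out 1 library ran from -0.25 to 0.284 for Cyp26b1, from -0.472 (without RA + IAA replicate 2) to 1.167 for Pou5f1, from -0.37 to 0.089 (without IAA replicate 1) for Nanog and from -0.127 (without IAA replicate 2) to 0.615 for Tbp. The cause was not tested. Genes with few reads, such as Pou5f1, Nanog and Cyp26a1, are limited by depth.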
